A study of Mus musculus with 4 samples.

Results

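Genes of fatty acid oxidation, and target genes of the fatty acid receptor PPARalpha, were examined in mouse liver after infusion of short-chain fatty acids into the cecum. The set was a list of 35 gene symbols. A symbol counted as measured where at least 1 probe set was annotated with that symbol alone, and 34 of the 35 were, among 18820 genes named this way. The acyl-CoA synthetase Acsl1 was not analysed here. All 34 measured members had a mean level at or above the floor of 5.55 on the log2 scale (the median of all genes' means), which 9410 genes reached. The mean of 33 members also lay at or above the upper quartile, 7.63. Fgf21 was the exception.

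The mice were male C57Bl/6J of 16-17 weeks kept for 6 weeks on semi-synthetic food based on palm oil and fitted with a permanent catheter in the cecum. After a morning fast, conscious mice received phosphate-buffered saline (control), sodium [1-13C]acetate, sodium [2-13C]propionate or sodium [2,4-13C2]butyrate through the catheter for 6 h at 0.2 ml/h. Each acid was given at 0.3 M, a rate of 2.4 mmol/h/kg. Liver RNA was pooled within each group, from 6 mice each for control, acetate and propionate and from 4 mice for butyrate, and each pool was measured on 1 array. With 1 array per group, no difference has a replicate check, no p-value or interval can be given, and each ratio compares 2 pools.

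Fatty acids enter mitochondria as carnitine esters and are shortened by beta-oxidation, which passes electrons on through the electron transfer flavoprotein and yields acetyl-CoA for the citrate cycle or for ketone bodies. Peroxisomes shorten very long and dicarboxylic acids, and cytochromes of the Cyp4a family start omega-oxidation from the other end of the chain. In liver, PPARalpha binds fatty acids released in fasting and, with its partner RXR, raises the transcription of many of these genes through a direct repeat of the half-site AGGTCA with 1 base between the copies.

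The 250 bases upstream of the start site are shown for 2 members, taken from RefSeq (GRCm38.p6). Cd36 is shown because its levels differed most among the members. Fabp1 is shown because its window held the closest match to the repeat, while its level was almost the same in the 4 pools. Capitals mark the match, which in both lies on the opposite strand. The Cd36 window is chr5:17835897-17836146 on the minus strand and the Fabp1 window chr6:71199629-71199878 on the plus strand.
Cd36: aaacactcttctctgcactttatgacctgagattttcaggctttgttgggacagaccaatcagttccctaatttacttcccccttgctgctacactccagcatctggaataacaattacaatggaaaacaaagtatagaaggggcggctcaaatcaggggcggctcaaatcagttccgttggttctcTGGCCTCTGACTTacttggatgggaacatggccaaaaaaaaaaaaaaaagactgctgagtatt
Fabp1: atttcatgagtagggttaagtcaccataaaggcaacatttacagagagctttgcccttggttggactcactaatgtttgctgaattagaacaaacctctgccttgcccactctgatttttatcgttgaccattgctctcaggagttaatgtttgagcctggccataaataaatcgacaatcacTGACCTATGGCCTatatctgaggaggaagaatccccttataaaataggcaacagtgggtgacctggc

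The repeat (AGGTCA, any base, AGGTCA) was searched on both strands of the RefSeq windows from 250 bases before to 50 bases after each start, allowing 2 mismatches in the 12 fixed bases. Windows were found for 25 of the 34 measured members. Abcd2, Acaa2, Acat1, Angptl4, Cyp4a14, Cyp4a31, Decr1, Hsd17b4 and Vnn1 had no entry. A match was present in 6 of the 28 windows of these 25 members (21.4%) and in 1268 of all 32851 windows (3.86%). The 6 matches are listed 5′ to 3′ in the direction of the repeat, because they show how near the members come to it. Capitals mark bases equal to the motif.
Fabp1: AGGcCAtAGGTCA
Cd36: AaGTCAgAGGcCA
Creb3l3: AGGggAgAGGTCA
Etfa: AGGgCAaAGGTaA
Plin2: AGGTCAggGGTCc
Slc25a20: AGGTgAaAGGTCg
The Fabp1 match, with 1 mismatch, began 67 bases upstream of the start at chr6:71199812-71199824, and the Cd36 match, with 2, began 63 bases upstream at chr5:17835947-17835959. The Slc25a20 match lay just after the start. The matches are a description of letters in these windows and not sites shown to bind the receptor. Of the 6 genes, Cd36 alone had 2 pools at least 1.2-fold apart. Ehhadh, Acaa1b and Pex11a also reached that difference, and their best windows had 4, 4 and 5 mismatches. Abcd2, Cyp4a14, Cyp4a31 and Vnn1 reached it too but had no window to search.

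Most members differed little between the pools. The highest and lowest of the 4 levels lay a median of 0.16 apart on the log2 scale, against 0.18 for all genes at or above the floor and 0.15 for genes at or above the upper quartile. No member was 1.5-fold (0.58 on the log2 scale) from control with any acid. Over the 9410 genes, the acetate pool was that much higher for 0.627% and lower for 0.51%, the propionate pool for 0.701% and 0.404%, and the butyrate pool for 0.755% and 0.361%. A pair of pools lay at least 1.2-fold apart for 8 of the 34 members, where 27.4% of all genes and 16.6% of those at or above the upper quartile did. These were Cd36, Ehhadh, Acaa1b, Abcd2, Pex11a, Cyp4a14, Cyp4a31 and Vnn1. All 4 levels lay within 0.1 for 12 members (35.3%), against 17.9% of all genes and 25.6% of those at or above the upper quartile.

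At the smaller threshold of 1.2-fold (0.26 on the log2 scale), 4 of 34 members were higher than control with acetate, where 4.65% of all genes were. With propionate 3 members were (all genes 4.55%), and with butyrate 3 (4.87%). Among genes at or above the upper quartile, 2.98%, 2.38% and 2.57% were higher with acetate, propionate and butyrate, and 2.81%, 3.36% and 2.17% lower. No member was 1.2-fold lower with acetate (all genes 5.26%) or propionate (5.64%), and 1 was with butyrate (3.73%). When the reference was the average of the remaining 3 pools in place of control, the counts of higher members were 2, 0 and 0. Among all genes, 708 had 2 probe sets and a gene mean at or above the floor. The log2 ratios of such a pair differed by a median of 0.09 to 0.11 over the 6 comparisons. At the 90th percentile they differed by 0.28 to 0.36. Both probe sets of a pair are read on the same arrays, so these differences hold no spread between mice or arrays.

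The direction of the small differences was uneven. With acetate 26 of 34 members lay above control, with a median log2 ratio of 0.067, while 46.2% of all genes did, with a median of -0.011. With propionate 19 members did (median 0.0059), against 39.2% of all genes (median -0.034). With butyrate 24 members did (median 0.054), against 48.7% of all genes (median -0.0036). Against the median of all genes rather than 0, the members above it were 28, 26 and 24. The acetate pool held the highest of the 4 levels for 18 members and the butyrate pool for 13, whereas control did for 2 and propionate for 1. Among all genes the shares were 26.3%, 30.3%, 28.3% and 15.1%. The 3 comparisons share the control pool, so they are not independent of one another. In 12 members (35.3%, all genes 19.1%) all 3 acid pools lay above control, and in 2 (Hadh and Abcd2; 5.88%, all genes 28.3%) all 3 lay below.

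**Figure D1:**
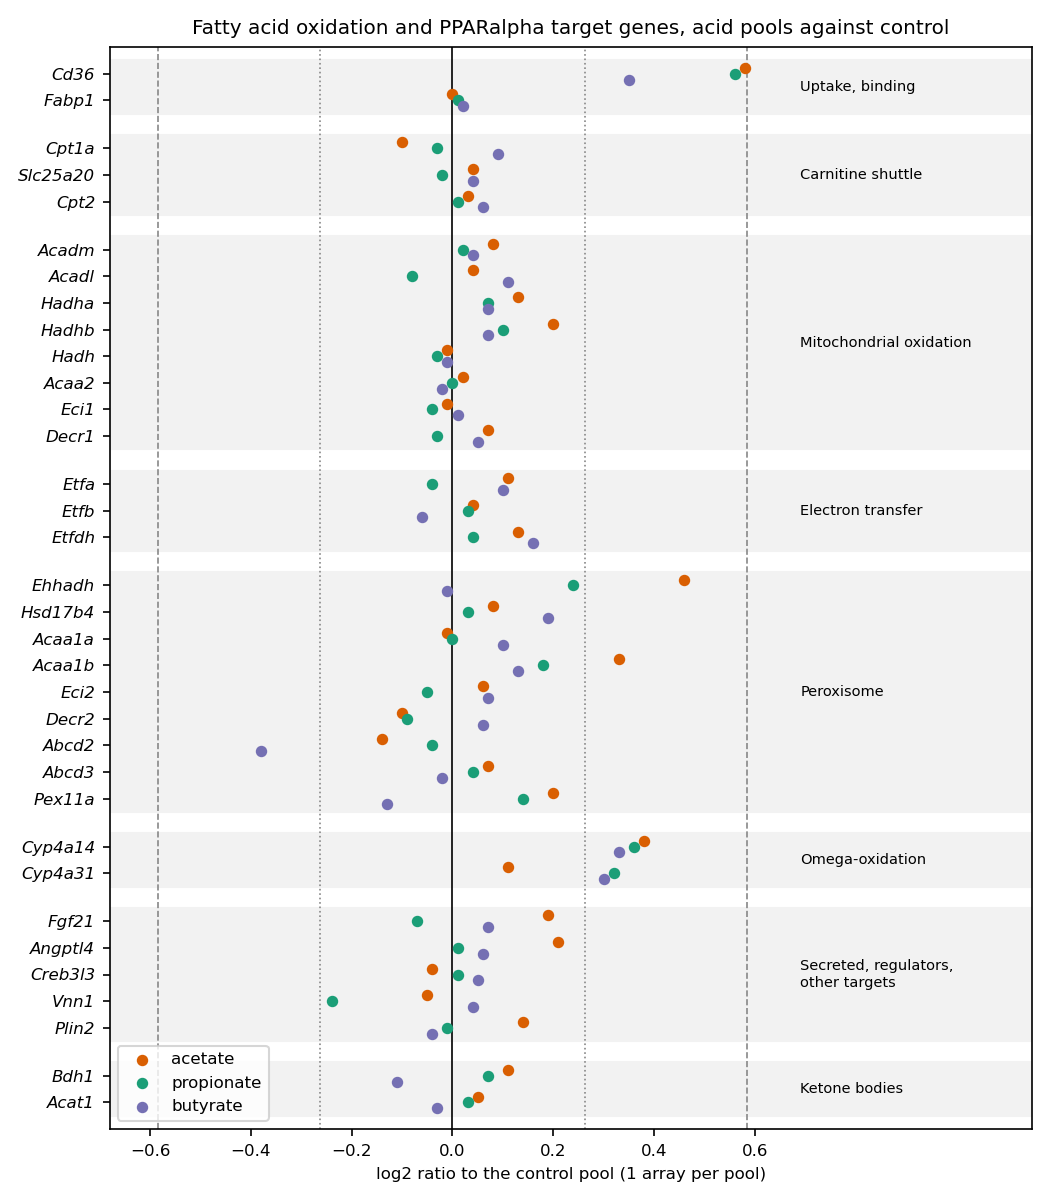
Log2 ratio of each acid pool to the control pool (horizontal axis) for the 34 measured members, grouped by role, with 1 point per pool. Dotted lines mark 1.2-fold and dashed lines 1.5-fold. Points of the carnitine shuttle and mitochondrial enzymes lie near 0, and those of Cd36 and Cyp4a14 lie at or beyond 0.33 in all 3 acid pools.

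**Figure D2:**
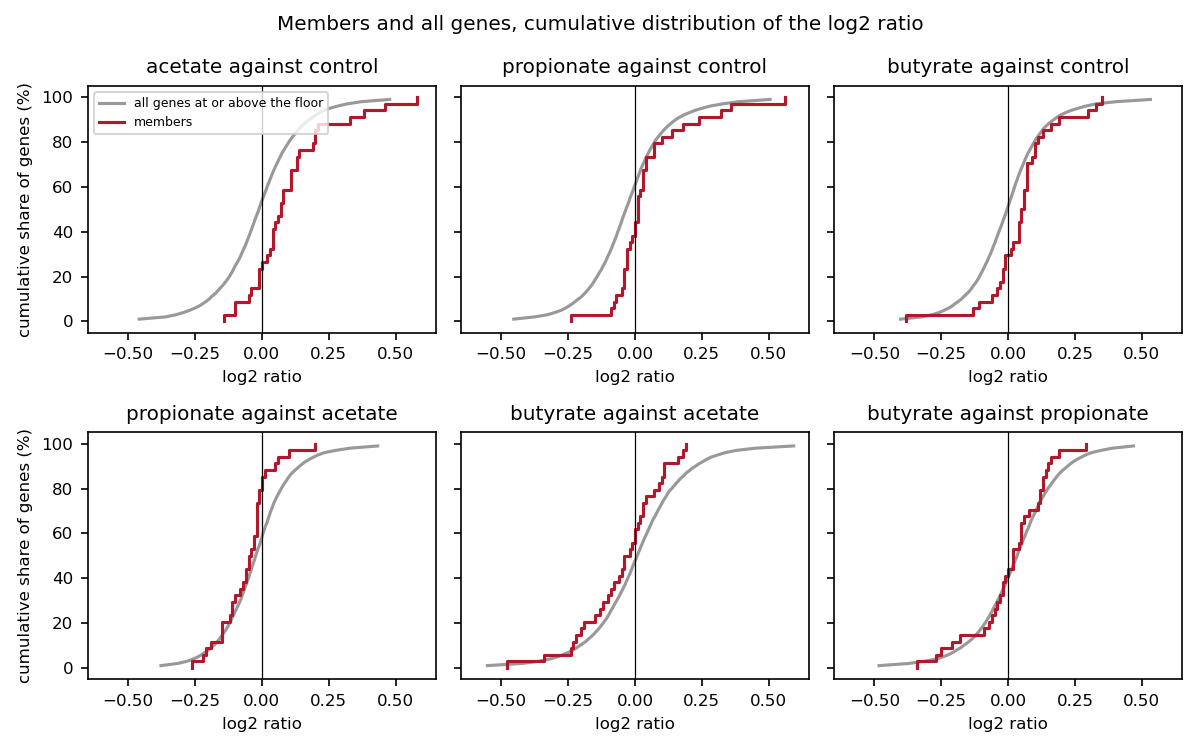
Cumulative share of genes (vertical axis, percent) by log2 ratio (horizontal axis) for the members and for all 9410 genes at or above the floor, in the 6 comparisons of pools. The members' line lies to the right of all genes in the middle of the 3 comparisons with control, where the medians were 0.067, 0.0059 and 0.054 for the members and -0.011, -0.034 and -0.0036 for all genes.

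Among genes of uptake and binding, Cd36, a membrane protein that takes up long-chain fatty acids, had the widest difference. Its log2 level was 8.57 in the control pool, 9.15 with acetate, 9.13 with propionate and 8.92 with butyrate. All 3 acid pools lay above control, with ratios of 0.58, 0.56 and 0.35. The acetate value lies just under 1.5-fold. With cyclic loess or with centring on the median ratio, both the acetate and the propionate values became 0.59 and passed it. By rank from the highest ratio, Cd36 stood at 61, 73 and 247 of 9410 genes. Fabp1, the abundant fatty acid binding protein of the hepatocyte cytosol, stood between 12.51 and 12.53 in all 4 pools.

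Cd36 is also made by macrophages, endothelium, adipocytes and muscle. Kupffer cell markers lay above control for 6, 11 and 12 of 12 genes in the acetate, propionate and butyrate pools, and their summed level (log2 of the sum of linear values) was 12.75, 12.77, 13.06 and 13.28 in the control, acetate, propionate and butyrate pools. Endothelial markers summed to 11.32, 11.35, 11.40 and 11.47, with 4, 5 and 5 of 9 above control. Adipocyte markers summed to 9.14, 9.52, 9.08 and 8.88, with 5, 3 and 0 of 7 above control, and Adipoq, Plin1 and Lep were below the floor in every pool. Skeletal muscle markers summed to 10.70, 10.61, 10.90 and 8.70, with 3, 10 and 0 of 14 above control, and Mylpf, Ttn and Ryr1 were below the floor in every pool. In pooled tissue, fewer cells of a type and less RNA per cell cannot be told apart, and the part of these cells in the Cd36 values was not tested.

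The carnitine shuttle showed small differences. Cpt1a, the outer membrane transferase that sets the pace of fatty acid entry, had levels of 12.04 with saline, 11.94 with acetate and 12.13 with butyrate, and propionate had a ratio of -0.03 to control. Butyrate was the highest pool and acetate the lowest, 0.19 apart. The carnitine carrier Slc25a20 and the inner transferase Cpt2 each stayed within 0.06 over the 4 pools.

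Between any 2 pools, 27.4% of all genes and 16.6% of those at or above the upper quartile reached 1.2-fold. Of 8 genes of mitochondrial beta-oxidation, none did. Above control were 6 with acetate (all genes 46.2%), 3 with propionate (39.2%) and 6 with butyrate (48.7%), with medians of 0.054, -0.015 and 0.046. Hadhb, the thiolase subunit of the trifunctional protein, differed most. Its levels were 9.96, 10.16, 10.05 and 10.03 in the control, acetate, propionate and butyrate pools. Its 2 probe sets gave similar ratios, 0.21 and 0.20 with acetate, 0.10 and 0.09 with propionate, and 0.08 and 0.07 with butyrate. The partner subunit Hadha had ratios of 0.13, 0.07 and 0.07. The dehydrogenase of medium-chain acyl-CoA, Acadm, had 0.08, 0.02 and 0.04, and that of long-chain acyl-CoA, Acadl, had 0.04, -0.08 and 0.11. The hydroxyacyl-CoA dehydrogenase Hadh, the thiolase Acaa2 and the isomerase Eci1 kept all 4 levels within 0.05, and the dienoyl-CoA reductase Decr1 kept them within 0.10.

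The electron transfer flavoprotein carries electrons from these dehydrogenases to the respiratory chain through its oxidoreductase, Etfdh. Etfdh levels were 10.57 with saline, 10.69 with acetate, 10.61 with propionate and 10.73 with butyrate, so control was lowest and butyrate highest. The ratios of the subunit genes were 0.11, -0.04 and 0.10 for Etfa and 0.04, 0.03 and -0.06 for Etfb.

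Of the 9 peroxisomal members, 4 were among the 8 members with 2 pools at least 1.2-fold apart. Such a difference was reached by 27.4% of all genes and 16.6% of those at or above the upper quartile. Ehhadh, the bifunctional enzyme of peroxisomal oxidation, had levels of 10.64 in control, 11.10 with acetate, 10.88 with propionate and 10.63 with butyrate. Acetate was highest, propionate intermediate, and butyrate equal to control within 0.01. The acetate ratio of 0.46 (1.38-fold) ranked 101 of 9410 genes. Acaa1b, a peroxisomal thiolase, showed the same order of acids, with levels of 8.85, 9.18, 9.04 and 8.98 in control, acetate, propionate and butyrate and ratios of 0.33, 0.18 and 0.13. Its close paralog Acaa1a had levels of 8.44, 8.43, 8.43 and 8.54 in the same pools, and only butyrate stood apart, by 0.10. Short probes may not fully separate these paralogs.

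Pex11a, which drives the division of peroxisomes, had levels of 10.32 in control, 10.52 with acetate, 10.45 with propionate and 10.18 with butyrate. The acetate and propionate pools lay above control by 0.20 and 0.14, and the butyrate pool below it by 0.13 in size. Abcd2, a transporter of very long-chain acyl-CoA into peroxisomes, had levels of 8.03, 7.89, 8.00 and 7.65 in control, acetate, propionate and butyrate. Butyrate was the lowest pool, with a ratio of -0.38 (1.30-fold lower than control), the only member 1.2-fold below control. In that pool all 14 skeletal muscle markers and all 7 adipocyte markers also lay below control. The part of these tissues in the Abcd2 value was not tested.

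The other peroxisomal members differed less. Hsd17b4, the second bifunctional enzyme, had ratios of 0.08, 0.03 and 0.19 with acetate, propionate and butyrate. The related transporter Abcd3 had 0.07, 0.04 and -0.02. The isomerase Eci2 had 0.06, -0.05 and 0.07, and the reductase Decr2 had -0.10, -0.09 and 0.06.

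Both omega-oxidation genes among the members lay above control in every acid pool, where 19.1% of all genes did. Outside the members, Cyp4a12a of the same family had ratios of 0.14, 0.02 and 0.09 with acetate, propionate and butyrate. Cyp4a12b had 0.14, -0.17 and 0.12, so it lay below control with propionate. Cyp4a14, a fatty acid hydroxylase and one of the most responsive PPARalpha targets of mouse liver, had a level of 11.70 in control and of 12.08, 12.06 and 12.03 with acetate, propionate and butyrate. The 3 acid pools lay within 0.05 of each other, and each was at least 1.26-fold above control. Cyp4a31 had levels of 10.67, 10.79, 10.99 and 10.97 in control, acetate, propionate and butyrate. Propionate and butyrate stood above control by 0.32 and 0.30, and acetate by 0.11. A further 2 probe sets name Cyp4a31 together with Cyp4a10, 1 of them also with Cyp4a32. Their ratios were 0.10 and 0.08 with acetate, 0.04 and 0.06 with propionate, and 0.17 and 0.18 with butyrate, below 1.2-fold in each. With these probe sets averaged in, the Cyp4a31 ratio was 0.14 with propionate and 0.22 with butyrate, both under 1.2-fold, and 2 members in place of 3 were 1.2-fold higher with each of these acids. Cross-hybridisation within this family leaves the gene behind each value uncertain.

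**Figure D3:**
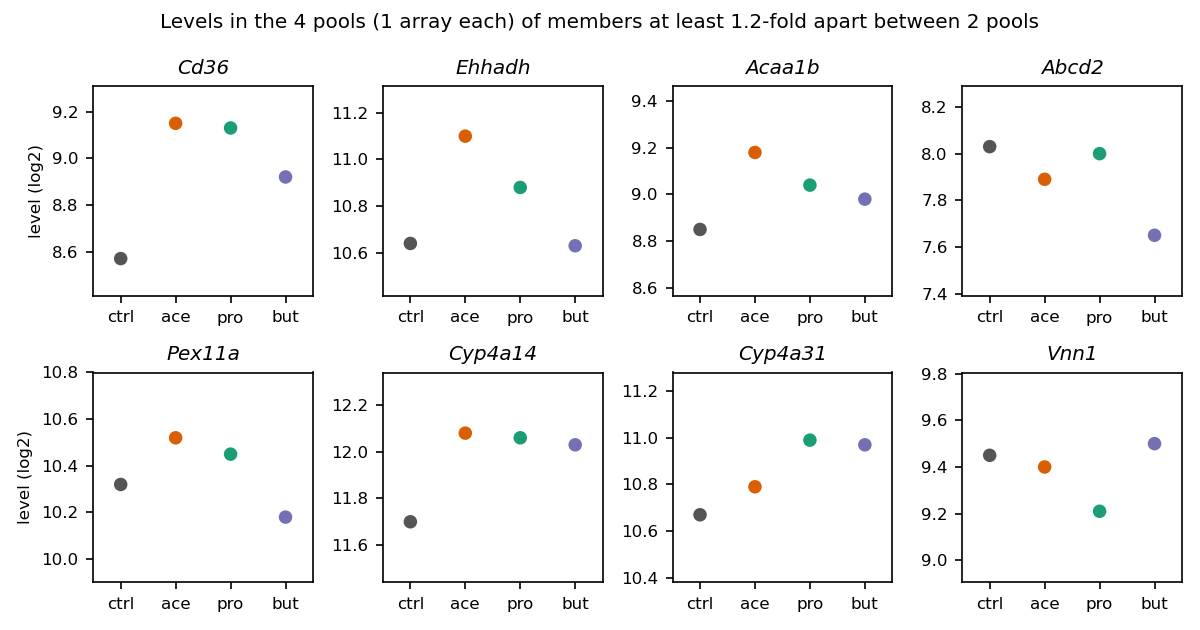
Log2 level (vertical axis) in the control (ctrl), acetate (ace), propionate (pro) and butyrate (but) pools of the 8 members with 2 pools at least 1.2-fold apart, 1 point per array, each panel spanning the same height. Control is the lowest pool for Cd36, Acaa1b, Cyp4a14 and Cyp4a31, and butyrate is the lowest for Ehhadh, Abcd2 and Pex11a.

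Among the 5 secreted factors, regulators and other targets, no member was 1.2-fold from control. Of all genes, 4.65%, 4.55% and 4.87% were that much higher and 5.26%, 5.64% and 3.73% lower with acetate, propionate and butyrate. Fgf21, a fasting hormone made by liver, had levels of 5.68 in control, 5.87 with acetate, 5.61 with propionate and 5.75 with butyrate. These lay just above the floor of 5.55, and acetate was the highest pool. Angptl4, a secreted inhibitor of lipoprotein lipase, had levels of 10.16, 10.37, 10.16 and 10.22 in control, acetate, propionate and butyrate. Acetate was again the highest pool. The lipid droplet coat protein gene Plin2 likewise had its highest level with acetate, with ratios of 0.14, -0.01 and -0.04.

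Vnn1, a pantetheinase, had levels of 9.45, 9.40, 9.21 and 9.50 in control, acetate, propionate and butyrate. Propionate was the low pool, with a ratio of -0.24 to control. The liver transcription factor gene Creb3l3, a partner of PPARalpha in fasting, kept its 4 levels within 0.09. Bdh1, which interconverts the ketone bodies, had levels of 10.20, 10.31, 10.27 and 10.09 in the same order of pools, and butyrate was the lowest. Acat1, which handles acetoacetyl-CoA, had ratios of 0.05, 0.03 and -0.03.

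The acids, which differ in the length of their carbon chain, were infused at 1 molar rate and for the same time. Their pools are set side by side here, but the butyrate pool held RNA of 4 mice and the others of 6. Kupffer cell, muscle and adipocyte markers also differed between the acid pools, as given above, and their part in these comparisons was not tested. No member was 1.5-fold apart between 2 acid pools. Of all genes, 0.414% were that much higher and 0.138% lower with propionate than acetate, 1.05% and 0.85% with butyrate than acetate, and 0.351% and 0.606% with butyrate than propionate. Between propionate and acetate no member reached 1.2-fold in either direction (all genes 3.24% higher and 3.67% lower). Fgf21 came closest, at -0.26. With propionate 27 of 34 members were lower than with acetate, with a median of -0.046, while 58.3% of all genes were lower, with a median of -0.023. Measured from that median, 22 members were lower. The 8 mitochondrial oxidation genes and the 3 electron transfer genes were among the 27, by 0.15 or less in size. Measured from the median of all genes, 7 of the 8 and 2 of the 3 were lower, and Hadh and Etfb were not.

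With butyrate, Ehhadh (-0.48) and Pex11a (-0.34) were at least 1.2-fold lower than with acetate (all genes 6.25%), and no member was that much higher (7.28%). Against propionate, Abcd2 (-0.34) and Pex11a (-0.27) were at least 1.2-fold lower with butyrate (4.1%), and Vnn1 (0.29) was higher (6.59%). Vnn1 no longer reached 1.2-fold there with cyclic loess or centring. The members' medians were -0.026 for butyrate against acetate and 0.022 for butyrate against propionate, beside 0.0082 and 0.034 for all genes. Cpt1a went the other way from Ehhadh, at 0.19 for butyrate against acetate. With 1 pool per acid no interval of these differences can be given, so a small difference does not show that the acids act alike.

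Of 92 further genes of the pathway, 78 were measured and 70 had means at or above the floor. The receptor gene Ppara had levels of 10.93, 10.79, 10.84 and 10.90 in control, acetate, propionate and butyrate, with control highest and acetate lowest. Among 15 genes of receptors and cofactors none was 1.5-fold from control, where 0.361% to 0.755% of all genes were by acid and direction. The medians of the 15 were -0.011, -0.083 and 0.043. The widest ranges were those of Ppargc1a, Rxrg and Pparg. Ppargc1a, a coactivator of oxidative genes, had levels of 8.16, 8.67, 8.29 and 8.38, so acetate was highest. Pparg, the receptor of adipocytes, had 6.84, 7.20, 7.26 and 7.14, with all acid pools above control, and Rxrg had 6.54, 6.19, 6.44 and 6.66.

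None of 29 other oxidation enzymes and carriers at or above the floor was 1.5-fold from control. By acid and direction, 0.361% to 0.755% of all genes were. The medians of the 29 were 0.002, -0.015 and 0.00074 with acetate, propionate and butyrate. The widest ranges were those of Acsl4, Slc27a1 and Slc22a5. The acyl-CoA synthetase Acsl4 had ratios of 0.21, 0.30 and -0.17, the fatty acid transporter Slc27a1 had -0.19, -0.25 and -0.40, and the carnitine transporter Slc22a5 had 0.23, -0.07 and -0.05. The ketone body genes Bdh2, Slc16a1 and Slc16a6 had ratios of 0.15, 0.14 and 0.10 with acetate and lay within 0.04 of control with propionate and butyrate.

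Of the other PPARalpha targets, 23 were at or above the floor, with medians of 0.21 with acetate, 0.041 with propionate and -0.0067 with butyrate. Above control were 19, 17 and 10 of the 23 (all genes 46.2%, 39.2% and 48.7%). With acetate 3 were at least 1.5-fold higher (all genes 0.627%) and 1 lower (0.51%). With propionate 1 was higher (0.701%), and with butyrate 1 was lower (0.361%). Acot2, a mitochondrial acyl-CoA thioesterase, had levels of 8.71, 10.11, 9.73 and 8.81 in control, acetate, propionate and butyrate. Acetate and propionate stood 1.40 and 1.02 above control and butyrate 0.10. With the average of the remaining pools as reference, the propionate value was 0.52, under 1.5-fold. The lipid droplet gene Cidec had 6.88, 7.64, 6.90 and 6.69, and only acetate stood high.

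Pdk4, a kinase that switches pyruvate dehydrogenase off when fat is burned, had levels of 8.12 in control, 8.80 with acetate, 8.12 with propionate and 7.40 with butyrate. Acetate was 0.68 above control and butyrate 0.72 below it in size. Cyp8b1, the sterol 12-alpha-hydroxylase of bile acid synthesis, had 9.69, 9.06, 9.70 and 10.11, with acetate the low pool at -0.63 and butyrate the high one at 0.42. At 1.2-fold, 10 of the 23 were higher with acetate, namely these first 3 and Acot1, Plin4, Aldh3a2, Lpl, G0s2, Fabp2 and Txnip, the last 7 named after their values were seen. With acetate 1 (Cyp8b1) was 1.2-fold lower. With propionate 2 were higher and none lower, and with butyrate 1 was higher and 4 were lower. The shares of all genes were 4.65%, 4.55% and 4.87% higher and 5.26%, 5.64% and 3.73% lower with acetate, propionate and butyrate. The list was chosen with earlier results of these data known, and its difference from the members or from all genes was not tested. Cidec and Plin4 are adipocyte markers as well. The summed level of that list was highest with acetate, as given above, but both genes are part of the sum. The other measured markers of that list had acetate ratios of -0.15 (Adipoq), 0.02 (Retn), -0.03 (Plin1), 0.17 (Fabp4) and 0.19 (Lep). Of these, only Fabp4 had a mean at or above the floor. Pdk4 and Lpl are abundant in muscle and fat, whose markers were lower with butyrate. The part of those tissues was not tested.

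**Figure D4:**
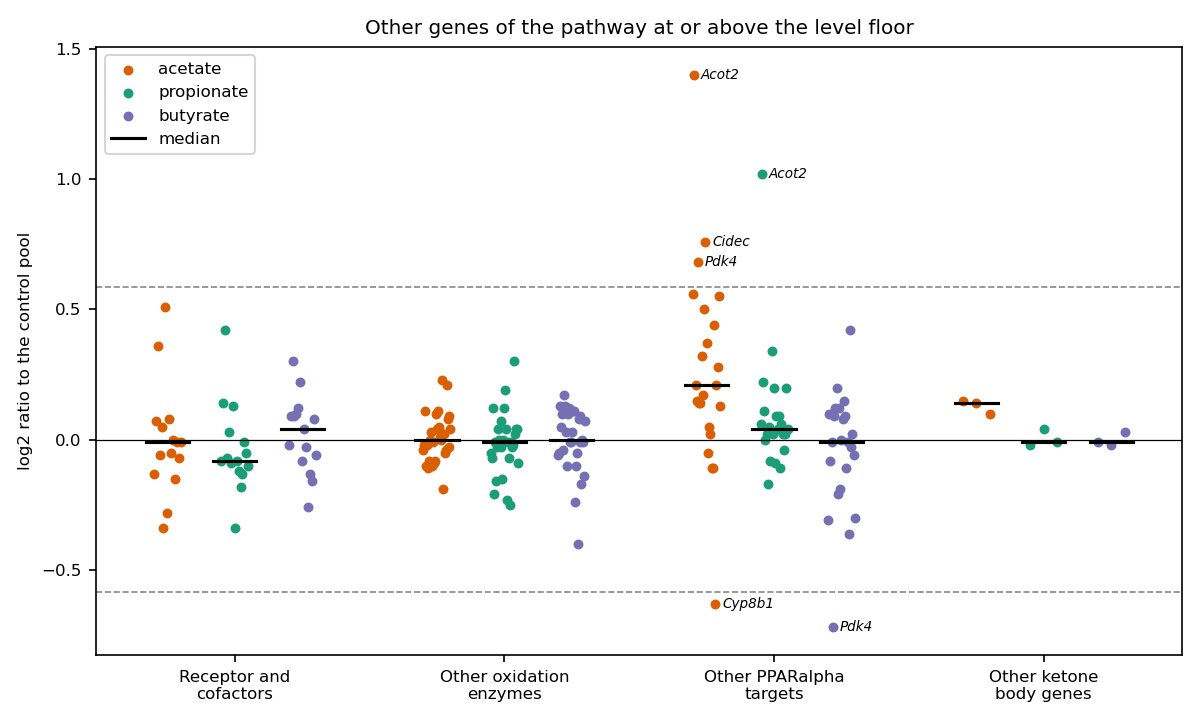
Log2 ratio to the control pool (vertical axis) of the 70 other pathway genes at or above the floor, by list and acid, 1 point per gene, with a bar at the median and dashed lines at 1.5-fold. Points past the dashed lines are Acot2, Cidec, Pdk4 and Cyp8b1, and the median of the other PPARalpha targets is 0.21 with acetate.

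The 4 arrays were alike, with medians of 5.11 to 5.12 and Pearson's r of 0.990 to 0.996 between pairs across genes at or above the floor (genes are not independent replicates). All 9 measured hepatocyte markers lay at or above the floor in every pool, and their summed level was 16.12 to 16.14. Other tissues differed between the pools. Pancreatic acinar markers lay below control for 9 of 9 genes with every acid, with a summed level of 13.32 in control and 12.55, 12.72 and 12.93 with acetate, propionate and butyrate. Neutrophil and monocyte markers lay above control for 0, 4 and 10 of 11 genes and summed to 12.87, 12.64, 12.69 and 12.98, of which Lcn2, which hepatocytes also make, gave 89.3% to 96.2%. Without Lcn2 the sums were 8.53, 7.92, 8.43 and 9.76, highest with butyrate, with Camp, Mmp8 and Mmp9 below the floor throughout. Intestinal epithelium markers lay above control for 5, 4 and 8 of 10 genes and summed to 11.35, 11.02, 11.28 and 11.74. Tff3 gave 43.0% to 58.1% of that sum. Without Tff3 the sums were 10.49, 9.95, 10.02 and 10.93, with Vil1, Cdx2 and Krt20 below the floor throughout. Most of each of these sums came from Zg16, with levels of 10.22, 9.55, 9.68 and 10.05. With butyrate, Muc2 and Lypd8 had the highest ratios of the list, 2.98 and 2.97, and Cdx1 (-0.02) and Zg16 (-0.17) lay below control. The part of these cells in the members' values was not tested.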

How the data were processed

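The values analysed were log2 expression values per probe set that the authors deposited, 35556 for each of 4 arrays. RMA (background correction, alignment of the arrays' distributions, summary of probes) is named in the submitters' processing notes, with settings and version not given in the sources used here. Because the distributions were aligned, a shift of all genes in 1 pool cannot be seen. Per the labels' protocols, 500 ng of RNA per mouse (RNA integrity number above 8) was pooled, and 100 ng entered cDNA synthesis.

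Gene names came from the platform's annotation in GEO: 21218 probe sets had 1 symbol, 1881 several and 12457 none there. Those with 1 symbol were averaged per symbol. All 34 measured members matched the RefSeq gene table by symbol, and 33 of them had 1 probe set. Each comparison was a log2 ratio of 2 arrays, with 1.5-fold as the main threshold and 1.2-fold as the smaller one, counted over genes at or above the floor. The number of arrays limits the precision. Calculations used Python 3.11.15, pandas 2.3.3 and, for cyclic loess, limma 3.58.1, and the ratio step was tested on simulated data.

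Named with all 4 levels (for Cpt1a 1 of them as its ratio) were members with pools at least 1.2-fold apart and the widest-ranging member of each role, and, beyond this rule and after their values were seen, Acaa1a (the paralog of Acaa1b), Fgf21 and Angptl4. From the pathway lists came Ppara, genes 1.5-fold from control, or else the 3 with the widest range. Cyp4a12a and Cyp4a12b were named beyond this rule, after their values were seen. Other probe sets, naming, normalization, centring, floors, thresholds and references were tried. The recount at 1.2-fold under each was added after the data were seen. The members, roles, pathway and marker lists were chosen with earlier results of these data known.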

Additional observations from a re-analysis of the deposited data

Results flagged for a closer look

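Pdk4 lay past 1.5-fold above control with acetate and past 1.5-fold below it with butyrate. The butyrate level was lower than the acetate level by a difference of -1.40 on the log2 scale. Each side is 1 pool and both share the control pool, so the difference was not tested. None of the 34 members went past 1.5-fold in both directions.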

How the results depend on the processing

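The members' counts at 1.5-fold stayed at 0 in all 6 comparisons with the brightest probe set, with probe sets naming several symbols, with no floor, with the floor at the upper quartile, at 2-fold and, for the 3 comparisons with control, against the mean of the other 3 pools. With cyclic loess, and with centring, 1 member (Cd36) was higher with acetate and 1 (Cd36) with propionate, because its value sits at the threshold. At 1.2-fold the higher members were 4 with acetate, 3 with propionate, 3 with butyrate and 1 for butyrate against propionate, and the lower ones were 1 with butyrate, 2 for butyrate against acetate and 2 for butyrate against propionate. The 1.2-fold counts of higher members became 2, 0 and 0 for acetate, propionate and butyrate against the mean of the other 3 pools, a reference that holds the other acids. With probe sets naming several symbols they became 2 for propionate and 2 for butyrate, through Cyp4a31, and with centring 4 for propionate. The count for butyrate against propionate became 0 with cyclic loess and with centring.

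None of 39 recomputed member medians moved by 0.1 or more. They ranged from 0.052 to 0.078 with acetate, from -0.021 to 0.040 with propionate and from 0.023 to 0.058 with butyrate, so the sign with propionate depends on the setting, as it does for butyrate against propionate (-0.012 to 0.032). Of 1560 recomputed values of single genes of the members and pathway lists, 61 moved by 0.1 or more. Against the mean of the other 3 pools, Acot1 with acetate (0.64), Acot2 with butyrate (-0.71) and Cyp8b1 with butyrate (0.63) passed 1.5-fold, and Acot2 with propionate (0.52) no longer did. No paired analysis was possible because each group is 1 pool. A difference of 1.2-fold is above the median disagreement between 2 probe sets of a gene (0.087 to 0.11) and under its 90th percentile (0.28 to 0.36). Both probe sets are read on the same arrays, so this disagreement holds no spread between mice or arrays and cannot stand in for replicates.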

Other observations

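A pair of PPARalpha targets that are abundant in muscle lay below the floor in their mean and so entered no count. Fabp3 had levels of 6.03, 5.76, 5.97 and 4.08 in the control, acetate, propionate and butyrate pools, and Ucp3 had 4.41, 4.46, 4.40 and 3.85. Both were lowest with butyrate, where 13 of 14 muscle markers were at least 1.5-fold below control. The other PPARalpha targets with means below the floor, Cidea, Krt23, Aqp3 and Aqp7, were lowest with butyrate too. Their butyrate ratios to control were -0.41, -0.22, -0.08 and -0.34. The part of muscle in these values was not tested. These genes were chosen after their values were seen.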
